A study of Homo sapiens with 16 samples.

Results

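CDKN1A and its relatives are the genes of the CDK inhibitors, small proteins that hold cyclin-dependent kinases, the engines of the cell cycle, in check. The genes were taken by name: CDKN1A (p21), CDKN1B (p27) and CDKN1C (p57) of the Cip/Kip family, and CDKN2B (p15), CDKN2C (p18) and CDKN2D (p19) of the INK4 family. Of the 6 genes listed, 5 had a named feature (a spot with 1 probe) on the array, with 27 features in all, out of 18334 named genes and 45220 features. CDKN1A and CDKN1B had 11 features each, CDKN1C and CDKN2B had 2 each, CDKN2D had 1, and CDKN2C had no feature named here. CDKN1A (Entrez gene 1026) lies on chromosome 6, CDKN1B (1027) on 12, CDKN1C (1028) on 11, CDKN2B (1030) on 9 and CDKN2D (1032) on 19.

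The cells were A549, an established human lung adenocarcinoma line that is known to carry a deletion of CDKN2A, the neighbour of CDKN2B on chromosome 9. Plates received carbon ions (C12) or X-rays, RNA was taken after 4h or 1h, and each irradiated plate was hybridised against a control plate of its own culture on a 2-colour Agilent array, with the dyes (Cy3 and Cy5) exchanged between arrays. There were 4 groups of 4 arrays, 16 in all: C12 at 4h, C12 at 1h, X-rays at 4h and X-rays at 1h. Per the labels, C12 was given over a 10 mm Bragg peak of 120.45 to 135.16 MeV/u, X-rays came from a 6 MV linear accelerator at 3 Gy per min, the 16 cultures were independent, and RNA of 2 independent experiments was pooled. The sources used here give no dose, so differences between C12 and X-rays are not differences at a matched dose. Only ratios were used here, so neither the level of a gene nor the presence of lung epithelial markers could be read.

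Which way the ratios run is not settled by the labels. The ratios of replicates 1 and 2 of each group were multiplied by -1, which likely gives irradiated over control on the log2 scale. Over features, pairs of C12 arrays labelled with one dye orientation had r between -0.869 and 0.853, and such pairs of X-ray arrays r between -0.363 and 0.31, so the labelled dye alone did not set the sign. The rule was chosen in earlier work on these values, where the mean of a list of DNA damage response genes that holds CDKN1A had to be positive after X-rays. The direction of CDKN1A after X-rays is therefore no independent evidence. The same choice also bears on how alike its X-ray arrays are, and so on its SE, rank and p-value. The residual spread of a gene was fitted over all arrays together, and CDKN1A had an SE of 0.144 in every group. Its SE, rank and p-value at C12 4h therefore also draw on the X-ray arrays. In a fit on the C12 arrays alone, CDKN1A had an SE of 0.075 at C12 4h (limma adjusted p 0.000129). As deposited, or turned by the labelled dye, CDKN1A at X-ray 4h read -0.149 or -0.241 with an SE of 0.557. With the opposite sign every rise reported here is a fall. A constant difference between replicates 1 and 2 on one side and 3 and 4 on the other cannot be told apart from a response.

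Cip/Kip proteins bind cyclin-kinase pairs and mainly block CDK2, while INK4 proteins bind CDK4 and CDK6 and keep D-type cyclins off them. Both routes hold RB unphosphorylated and E2F target genes silent, so that cells wait in G1 before DNA replication. CDKN1A is known to be transcribed more after DNA damage, whereas the amount of CDKN1B protein is set largely by its degradation through SKP2.

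The promoters of CDKN1A and CDKN1B are shown because one gene moved and the other, measured with as many features, did not pass the test in any group. Each is the 250 bases before the RefSeq transcription start (GRCh38.p14), CDKN1A from chr6:36678464-36678713 and CDKN1B from chr12:12717118-12717367, both on the plus strand. Capitals mark matches on either strand to the GC box core GGGCGG, the CCAAT box CCAAT or the E-box CAGCTG.
CDKN1A promoter: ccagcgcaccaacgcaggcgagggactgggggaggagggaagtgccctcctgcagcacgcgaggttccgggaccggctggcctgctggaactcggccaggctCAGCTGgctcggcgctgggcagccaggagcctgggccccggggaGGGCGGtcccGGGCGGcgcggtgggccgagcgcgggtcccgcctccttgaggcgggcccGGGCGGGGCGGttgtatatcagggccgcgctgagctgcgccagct
CDKN1B promoter: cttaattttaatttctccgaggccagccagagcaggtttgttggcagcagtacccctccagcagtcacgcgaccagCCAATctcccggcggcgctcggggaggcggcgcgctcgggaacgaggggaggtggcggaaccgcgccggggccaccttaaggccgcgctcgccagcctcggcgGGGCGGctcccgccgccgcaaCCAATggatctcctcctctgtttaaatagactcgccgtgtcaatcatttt

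The CDKN1A window held 4 matches to GGGCGG, beginning 104, 94, 45 and 40 bases before the start (the last pair overlaps by 1 base), and 1 match to CAGCTG. CDKN1B held 1 match to GGGCGG and 2 to CCAAT. Of 35116 promoter windows of this length, 42.6% held GGGCGG, 32.0% CCAAT and 14.0% CAGCTG. GC content was 76.4% for CDKN1A and 64.4% for CDKN1B. Whether these motifs or the GC content bear on the response was not tested.

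CDKN1A RNA rose 4h after C12, 4h after X-rays and 1h after X-rays, each by 2-fold or more, and did not pass the test 1h after C12. The estimates were 2.18-fold at C12 4h, 1.04-fold at C12 1h, 2.73-fold at X-ray 4h and 2.04-fold at X-ray 1h. These sizes, and the differences between groups below, are on the deposited scale, where every array had an SD of 0.4142 to 0.4143. They need not equal the folds in RNA. None of the other 4 genes passed in any group. Few genes of the array passed: 0.0109% at C12 4h, 0% at C12 1h, 0.567% at X-ray 4h and 0.0491% at X-ray 1h. These shares count CDKN1A itself, which is 1 of the 2 genes that passed at C12 4h. CDKN1A had the lowest p of all genes at C12 4h (rank 1), rank 2 at X-ray 4h and rank 5 at X-ray 1h.

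The values behind these estimates are the means over the 11 features on each array, for replicates 1 to 4 in order. At C12 4h, CDKN1A had log2 ratios of 0.92, 1.65, 0.51 and 1.41. At C12 1h the ratios were -0.35, 0.63, -0.46 and 0.43. After X-rays they were 2.09, 1.10, 1.29 and 1.315 at 4h. They were 1.19, 0.91, 1.04 and 0.96 at 1h. All 4 arrays were above 0 in 3 groups. The share of all genes with 4 arrays on one side of 0 is not given here, so these signs are descriptions. For the X-ray groups the signs were partly set by the sign rule, which was chosen on a list that holds CDKN1A. At C12 1h the 2 arrays with the irradiated plate in Cy5 were above 0 and the 2 with it in Cy3 below. The spread over arrays was smallest at X-ray 1h (SD 0.123) and 0.44 or more in the other groups (0.508 at C12 4h, 0.549 at C12 1h and 0.44 at X-ray 4h, n = 4 each).

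**Figure D1:**
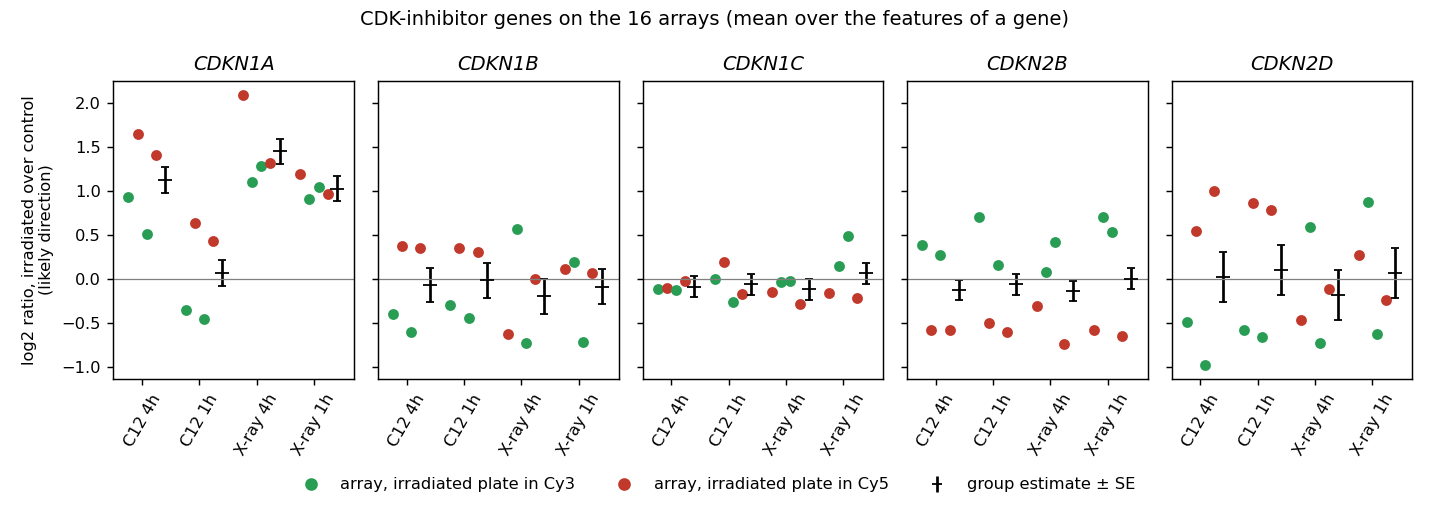
Log2 ratio of irradiated over control (likely direction) for the 5 measured genes, 1 point per array, green for arrays with the irradiated plate in Cy3 and red for Cy5, with the fitted group estimate ± SE in black. CDKN1A lies above 0 on all arrays of C12 4h, X-ray 4h and X-ray 1h, while CDKN1B and CDKN2D split with the dye after C12 and CDKN2B in all 4 groups. CDKN1C lies between -0.28 and -0.023 on the arrays of C12 4h and X-ray 4h, as the mean of 2 features of opposite sign. In the other groups it lies on both sides of 0.

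In a fit with 1 dye coefficient per radiation quality, the CDKN1A coefficient was 0.44 ± 0.087 (SE) on the C12 arrays and 0.15 on the X-ray arrays, beside a median absolute coefficient over all genes of 0.33 and 0.10. Each group held 2 arrays per orientation, so a constant dye coefficient cancels in the group mean. All tests carried 1 dye coefficient. In limma's linear model over 16 arrays with 4 group means, CDKN1A stood at 1.12 ± 0.144 (SE, n = 4 arrays) at C12 4h, with a 95% interval of 0.82 to 1.43 and a limma adjusted p of 0.00769 over 18334 genes. At C12 1h it stood at 0.063, with an interval of -0.24 to 0.37 and a limma adjusted p of 1. At X-ray 4h the estimate was 1.45 (1.15 to 1.75, limma adjusted p 8.19e-05), and at X-ray 1h it was 1.025 (0.72 to 1.33, limma adjusted p 0.00526).

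The X-ray 4h call held without any 1 of its arrays, with estimates of 1.32 to 1.61. The C12 4h call was lost without replicate 1 (1.09, limma adjusted p 0.183), replicate 2 (1.04, limma adjusted p 0.226) or replicate 4 (1.125, limma adjusted p 0.125), with little change in the estimate. The X-ray 1h call was lost without replicate 2 (0.96, limma adjusted p 0.110) or replicate 3 (0.91, limma adjusted p 0.0867), and in a fit on its own 4 arrays (limma adjusted p 0.205). Without a dye term both the C12 4h call (limma adjusted p 0.729) and the X-ray 1h call (limma adjusted p 0.383) were lost.

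The 11 CDKN1A features gave estimates of one sign in every group. At C12 4h they ran from 0.87 to 1.26 (median 1.14), and 8 of 11 rose. Of all features 10 changed in either direction (0.0221%), and these 8 are among the 10. At C12 1h they ran from 0.016 to 0.099, and 0 of 11 passed, as did 0% of all features. At X-ray 4h they ran from 1.04 to 1.75 (median 1.48), and 10 of 11 rose. Of all features 178 changed (0.394%), these 10 included. At X-ray 1h they ran from 0.78 to 1.09 (median 1.04), and 6 of 11 rose. Of all features 17 changed (0.0376%), these 6 included. The count was 0 at C12 4h without replicate 1 or 2, and 0 at X-ray 1h without replicate 2 or 3. No CDKN1A feature fell in any group. The features of a gene share the RNA of the array, so their agreement concerns the measurement and not the number of cultures. Probe sequences were not used here, so features of 1 accession may be repeat spots of 1 probe. Their agreement is then not that of 11 distinct probes.

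Of the 11 features, 10 carry the accession NM_000389, and each followed the mean of the other features over 16 arrays with r between 0.759 and 0.979. The remaining feature carries NM_078467, another CDKN1A transcript record, and followed the others with r = 0.658. On the C12 4h arrays it read 0.93, 0.62, 1.32 and 0.63, highest on replicate 3, where the gene mean was lowest. At C12 1h it read -0.091, 0.19, -0.185 and 0.15. After X-rays it read 1.59, 1.34, 1.73 and 1.27 at 4h. It read 0.73, 0.92, 1.09 and 0.38 at 1h. Its group estimates were 0.87 (C12 4h), 0.016 (C12 1h), 1.48 (X-ray 4h) and 0.78 (X-ray 1h), and it passed at C12 4h (limma adjusted p 0.0297 over features) and X-ray 4h (1.70e-05) but not at X-ray 1h (0.0584). On the C12 4h arrays it was higher with the irradiated plate in Cy3, the opposite order to the gene mean. Whether the probes see different transcripts was not tested.

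On X-ray 4h replicate 4 the features came apart. There 3 of the 11 read 0.46, 0.03 and -0.47, while the other 8 read 1.27 to 2.30, and the SD over features was 0.904, against 0.035 to 0.451 on the other 15 arrays. The median SD over features of the 235 genes with 10 or more features was 0.286 on that array. The features also spread more than that median on C12 4h replicates 2, 3 and 4 (0.451, 0.277 and 0.278, against 0.113, 0.105 and 0.099) and on X-ray 4h replicate 1 (0.437, against 0.15), and on 9 of 16 arrays in all. The 3 low readings are each held, to the last deposited digit, by 15, 226 and 548 features of that array, the CDKN1A feature itself included. Without values that 10 or more features of an array share, the gene mean there was 1.81 in place of 1.315, and the X-ray 4h estimate was 1.57 (limma adjusted p 3.05e-05). Such shared values made up 3.98% of the CDKN1A readings, against 60.71% over all features.

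**Figure D2:**
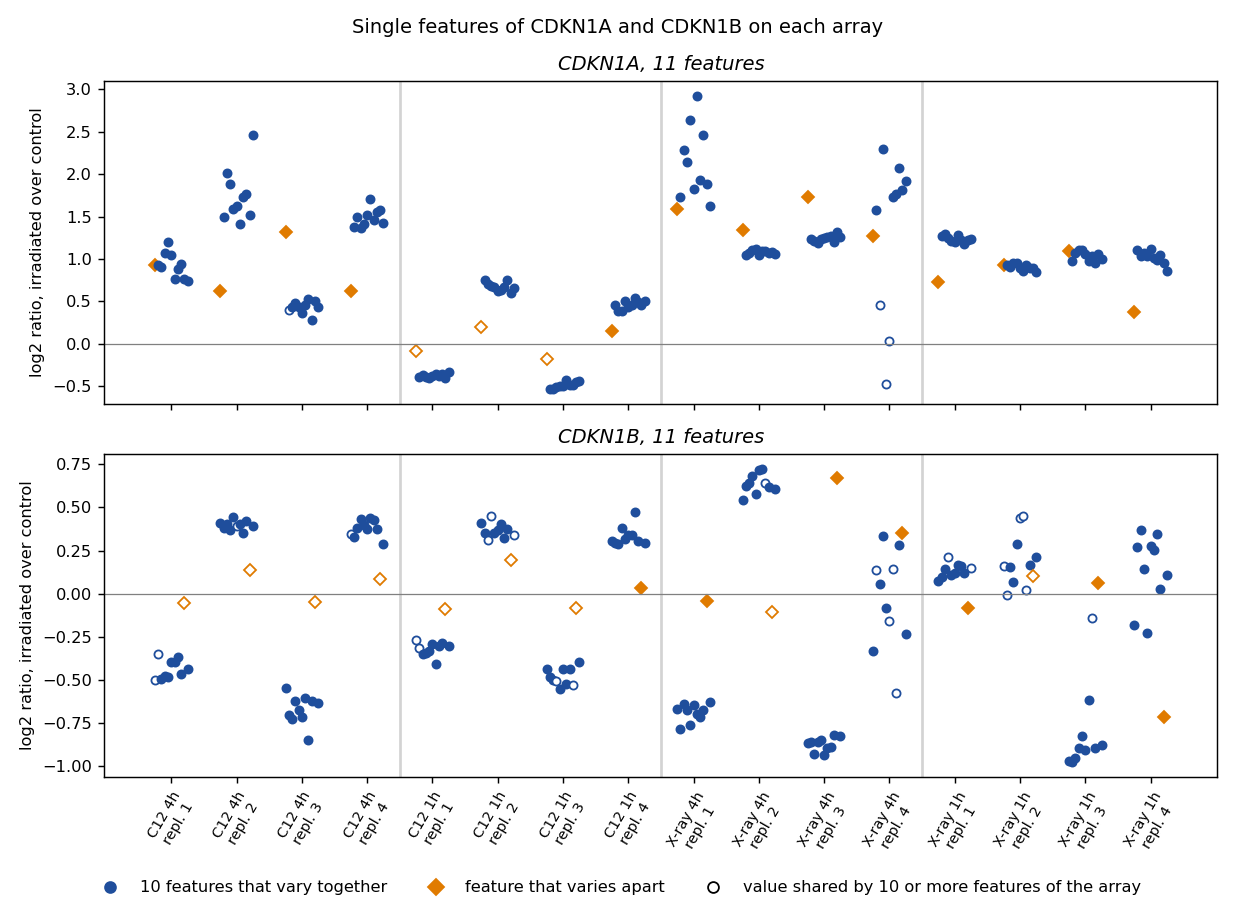
Log2 ratio of each of the 11 CDKN1A features (top) and 11 CDKN1B features (bottom) on each of the 16 arrays, with the feature that followed its gene least as an orange diamond and values shared by 10 or more features of the array as open symbols. CDKN1A features spread most on X-ray 4h replicate 4 (SD 0.904), where 3 open symbols lie between -0.47 and 0.46, and next on C12 4h replicate 2 (0.451) and X-ray 4h replicate 1 (0.437).

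At 1h every C12 array had a lower CDKN1A ratio than every X-ray array, but the difference did not pass over all genes. The 4 C12 1h arrays (-0.46 to 0.63) did not overlap the 4 X-ray 1h arrays (0.91 to 1.19), which 0.562% of genes showed in either direction. The difference, C12 minus X-rays, was -0.96 ± 0.204 (95% interval -1.39 to -0.53, rank 5 by p), with a limma unadjusted p of 0.000182 and a limma adjusted p of 0.565. In 12 other settings with the direction kept, the lowest limma adjusted p was 0.0781. In this comparison 0% of genes passed in limma, and 146 genes had an unadjusted p under 0.05. If no gene differed, a share of about 0.05 of the 18334 genes would be looked for. This count, and those of the same kind in the comparisons below, lie under that share. The median residual spread over all genes was 0.123 on the C12 arrays and 0.319 on the X-ray arrays. Its bearing on these counts was not tested.

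At 4h the C12 arrays (0.51 to 1.65) and X-ray arrays (1.10 to 2.09) overlapped, as for all but 0.976% of genes. The difference was -0.33 ± 0.204, with an interval of -0.76 to 0.10 and a limma adjusted p of 0.9999, so a difference of up to 0.76 on the log2 scale in favour of X-rays lies within it. Here too 0% of genes passed, and 329 had an unadjusted p under 0.05.

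Between the times, CDKN1A was 1.06 ± 0.204 higher at 4h than at 1h after C12 (interval 0.63 to 1.49). It had the lowest p of all genes in this comparison (limma unadjusted p 6.54e-05), yet a limma adjusted p of 1, and 0% of genes passed, with 24 at an unadjusted p under 0.05. In a fit on the 8 C12 arrays alone, the same difference passed (limma adjusted p 0.00969), and with limma's array weights it was 1.045 (limma adjusted p 0.000102). Those weights were 2.23 to 3.67 on the C12 arrays and 0.084 to 1.89 on the X-ray arrays, and the residual spread of CDKN1A was 0.171 on the C12 arrays and 0.296 on the X-ray arrays. After X-rays the difference between 4h and 1h was 0.425 ± 0.204 (interval -0.004 to 0.85, limma adjusted p 0.9998), and again 0% of genes passed, with 645 at an unadjusted p under 0.05.

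Pooled over dyes, the 4h and 1h arrays overlapped after C12 (0.51 to 1.65 against -0.46 to 0.63) and after X-rays (1.10 to 2.09 against 0.91 to 1.19). For groups whose arrays do not overlap the background was 0.109% of genes after C12 and 0.955% after X-rays. Within each dye orientation, a view chosen after the values were seen, every 4h array of CDKN1A lay above every 1h array, both after C12 (2.48% of genes had such an order in one direction) and after X-rays (2.51%). In the same view C12 1h lay below X-ray 1h (3.02% of genes), and C12 4h overlapped X-ray 4h (2.89% of genes did not). With 2 arrays a side per dye, these orders are descriptions.

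Whether the time course differed between the exposures was tested as an interaction. The change between 1h and 4h was 0.63 ± 0.288 larger after C12 than after X-rays (interval 0.028 to 1.24), with a limma unadjusted p of 0.0414 and a limma adjusted p of 0.9999. Of all genes 0% passed, and 137 had an unadjusted p under 0.05. The order of the 4 group estimates was X-ray 4h, C12 4h, X-ray 1h and C12 1h, and the intervals of the first 3 overlap each other, while that of C12 1h overlaps none of them.

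**Figure D3:**
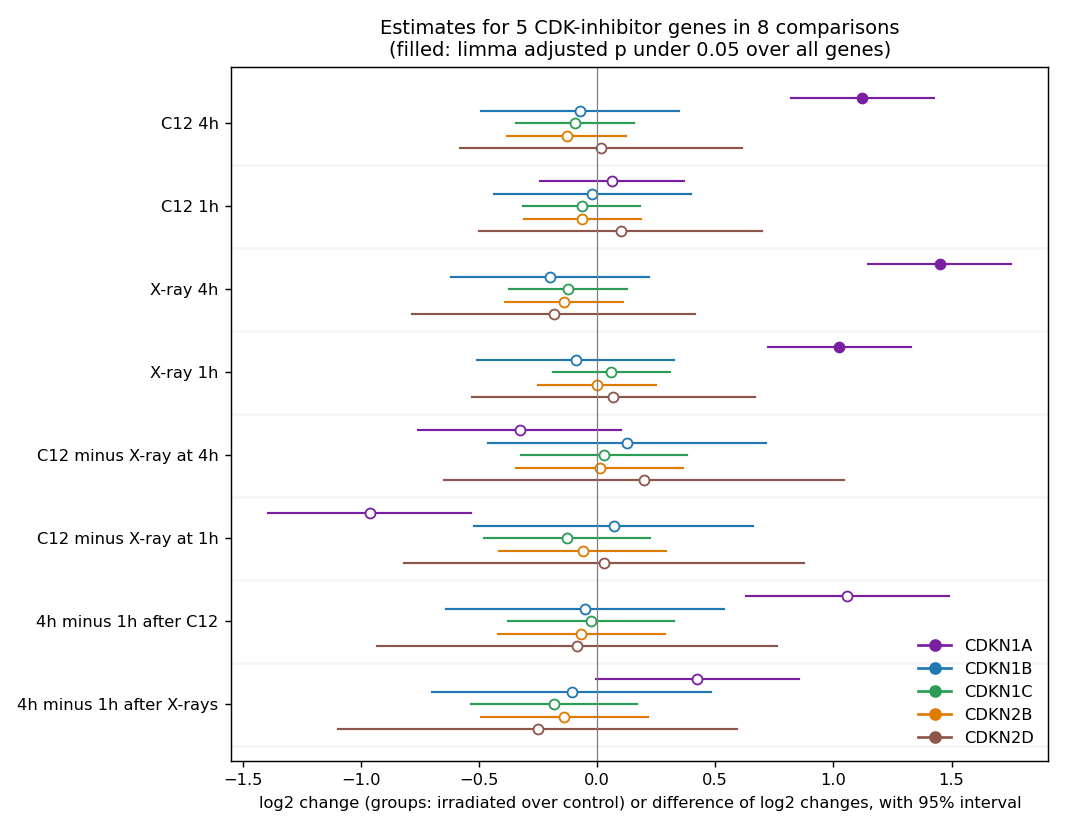
Estimates with 95% intervals for the 5 genes in the 4 groups (log2 change, irradiated over control) and in 4 differences between groups, filled where the limma adjusted p over all genes was under 0.05. Of 40 estimates, 3 are filled, all of CDKN1A: C12 4h at 1.12, X-ray 4h at 1.45 and X-ray 1h at 1.025.

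CDKN1B encodes p27, which holds CDK2 in quiescent cells. It read -0.40, 0.37, -0.61 and 0.35 on the C12 4h arrays. At C12 1h it read -0.30, 0.35, -0.44 and 0.31. On both sets the sign followed the dye of the irradiated plate. After X-rays it read -0.63, 0.57, -0.73 and -0.007 at 4h. It read 0.115, 0.19, -0.73 and 0.061 at 1h. All groups spanned 0 and overlapped each other. The estimates were -0.072, -0.02, -0.20 and -0.091 for C12 4h, C12 1h, X-ray 4h and X-ray 1h (SE 0.198 each), with limma adjusted p-values of 0.959 or more. Of its 11 features, 0 passed in any group, against 0.0221%, 0%, 0.394% and 0.0376% of all features in the same order of groups.

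The 95% interval of CDKN1B was -0.49 to 0.345 at C12 4h and -0.62 to 0.22 at X-ray 4h, so a change of the size seen for CDKN1A lies outside both. The X-ray 4h value rested on single arrays. Without replicate 2, the array with the lowest weight (0.084), it was -0.56 (limma adjusted p 0.0428), in a fit where 1322 genes passed. Without replicate 1 it was 0.034.

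As for CDKN1A, 1 of the CDKN1B features varied apart from the others (r = -0.211 with their mean, against 0.846 to 0.985 for the other 10), although all 11 carry NM_004064. Its readings on the C12 arrays lay between -0.089 and 0.19. On the X-ray arrays it reached 0.67 on 4h replicate 3, where the gene mean was -0.73, and -0.72 on 1h replicate 4, where the gene mean was 0.061. Shared values made up 18.75% of the CDKN1B readings and 9 of the 16 readings of this feature.

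CDKN1C, p57, is an imprinted inhibitor with a role in development. It read between -0.13 and -0.024 on the C12 4h arrays, between -0.27 and 0.19 at C12 1h, between -0.28 and -0.023 at X-ray 4h and between -0.22 and 0.485 at X-ray 1h. All 4 arrays were below 0 at C12 4h and at X-ray 4h, but on each of them 1 of the 2 features was above 0. At C12 4h, 1 feature read -0.32, 0.40, -0.38 and 0.34, and the other 0.088, -0.60, 0.13 and -0.39. The estimates were -0.092, -0.065, -0.12 and 0.061 (SE 0.118), with limma adjusted p-values of 0.956 or more. Its 2 features did not vary together (r = -0.516). The one for the transcript record NM_000076 stood at 0.28 ± 0.135 at X-ray 1h, and the one for the expressed tag BQ184185 at -0.155 ± 0.143, neither past the threshold (limma adjusted p 1 each). All 16 readings of the tag's feature were shared values.

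CDKN2B encodes p15, an INK4 inhibitor known as a target of TGF-beta signalling. It read 0.38, -0.585, 0.27 and -0.59 on the C12 4h arrays. The C12 1h arrays gave 0.70, -0.50, 0.16 and -0.60. After X-rays it read -0.32, 0.078, 0.42 and -0.74 at 4h. It read -0.58, 0.705, 0.53 and -0.66 at 1h. In all 4 groups the Cy3 arrays were above 0 and the Cy5 arrays below. The dye coefficient was -0.47 on the C12 arrays and -0.50 on the X-ray arrays, and 87.5% of its readings were shared values. The estimates were -0.13, -0.062, -0.14 and -0.001 (SE 0.119), with limma adjusted p-values of 0.941 or more. Its 2 features varied together (r = 0.806). Whether A549 cells hold CDKN2B RNA at all cannot be read from ratios.

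CDKN2D encodes p19, an INK4 inhibitor. Its single feature read -0.49, 0.545, -0.98 and 0.99 on the C12 4h arrays. At C12 1h it read -0.58, 0.86, -0.66 and 0.78. It read -0.47, 0.59, -0.73 and -0.12 at X-ray 4h. At X-ray 1h it read 0.27, 0.87, -0.63 and -0.24. The estimates were 0.016, 0.10, -0.18 and 0.069 with an SE of 0.284 (limma adjusted p 0.9991 or more), and the interval at X-ray 4h ran from -0.78 to 0.415. CDKN2D gave the widest intervals of the 5 genes, with a dye coefficient of 0.74 on the C12 arrays and a residual spread of 0.665 on the X-ray arrays.

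In none of the 4 differences between groups did CDKN1B, CDKN1C, CDKN2B or CDKN2D pass, as was so for all genes (0% passed). Their differences, C12 minus X-rays, were 0.13, 0.03, 0.011 and 0.20 at 4h. The differences at 1h were 0.07, -0.13, -0.061 and 0.03. The differences 4h minus 1h were -0.051, -0.027, -0.068 and -0.084 after C12, and -0.11, -0.18, -0.14 and -0.25 after X-rays.

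Across the 16 arrays, the r of CDKN1A was 0.105 with CDKN1B, 0.034 with CDKN1C, -0.399 with CDKN2B and 0.224 with CDKN2D. With group means and a dye coefficient per radiation quality removed, it was -0.493, 0.531, 0.688 and -0.225 with the same genes, so the sign was the opposite for CDKN1B, CDKN2B and CDKN2D. CDKN1B and CDKN2D varied together with r = 0.91 over 16 arrays, 0.981 on the 8 C12 arrays and 0.874 on the 8 X-ray arrays. With the same terms removed, their r was 0.873. The arrays share the rule for the sign, so these are descriptions.

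The genes whose ratios were most like those of CDKN1A over the 16 arrays were PHLDA3 (r = 0.864), BBC3 (0.853), PLEKHF1 (0.853), COQ8A (0.821) and EDN2 (0.815). PHLDA3 is a brake on AKT signalling and BBC3 (PUMA) a pro-apoptotic BCL2 family gene, PLEKHF1 is a lysosome-associated protein, COQ8A acts in coenzyme Q synthesis, and EDN2 is a vasoactive peptide. BBC3 averaged 0.78 at C12 4h, 0.11 at C12 1h, 0.81 at X-ray 4h and 0.88 at X-ray 1h, PHLDA3 0.46, 0.009, 1.08 and 0.75. The lowest r were those of CAPS2 (-0.786), FAAH2 (-0.774) and NDN (-0.752), whose highest group mean was at C12 1h (0.21, 0.33 and 0.24). All these genes were picked by r over the same arrays, so their group means largely follow from that choice and are no separate result.

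The inhibitors act on cyclins and their kinases. Of 15 genes listed as G1 and S cyclins and their kinases, a list that also holds CCNB1 and CDK1 of mitotic entry, all were measured. At X-ray 4h, 2 of the 15 fell, CCNA2 and CCNB1, against 0.567% of all genes changed in either direction (8 of 18334 fell). At C12 4h, C12 1h and X-ray 1h, 0 of the 15 passed, against 0.0109%, 0% and 0.0491% of all genes. The list median was -0.062 at C12 4h, -0.02 at C12 1h, -0.18 at X-ray 4h and 0.042 at X-ray 1h, beside 0.005, 0.002, 0.001 and 0.003 over all genes. At X-ray 4h, 12 of the 15 estimates were below 0, with CDK1 at -0.42 ± 0.268 (not passed) and CCND1 at 0.31 ± 0.247 (not passed).

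CCNA2, the S-phase and G2 partner of CDK2 and CDK1, fell at X-ray 4h. It read -0.58, -0.65, -1.01 and -0.73 on those arrays, at an estimate of -0.74 ± 0.122 (limma adjusted p 0.00540). CCNB1, the mitotic partner of CDK1, fell there too. It read -0.52, -0.83, -1.14 and -0.85, at -0.83 ± 0.144 (limma adjusted p 0.00879). All 4 arrays were below 0 for both genes, a pattern whose share over all genes is not given here. At C12 4h both genes spanned 0 with the dye, at estimates of -0.099 and -0.15. The calls were lost without replicate 3 (limma adjusted p 0.0583 for CCNA2 and 0.0562 for CCNB1), CCNB1 also without replicate 1 (0.0677) or 4 (0.0660), and both without a dye term (0.278 and 0.782), with array weights (0.0898 and 0.112) and on the 8 X-ray arrays alone (0.0715 each).

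Of 15 RB and E2F family genes, 1 rose at X-ray 4h, against 0.567% of all genes changed (96 of 18334 rose). In the other groups 0 passed, against 0.0109% of all genes at C12 4h, 0% at C12 1h and 0.0491% at X-ray 1h. The list medians in the 4 groups were -0.005, -0.003, -0.115 and 0.11. The riser was E2F7, a repressor of E2F target genes. It read 0.99, 0.83, 0.97 and 1.17 on the X-ray 4h arrays, at 0.99 ± 0.173 (limma adjusted p 0.00957). Its estimates were 0.24 at C12 4h, -0.028 at C12 1h and 0.50 at X-ray 1h (limma adjusted p 1, 1 and 0.9999), and its X-ray 4h call was lost without replicate 3 (0.146), without a dye term (0.159) and with array weights (0.236).

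Of 16 genes for the turnover of the inhibitors and their other partners, 0 passed in any group. Of all genes, 0.0109% passed at C12 4h, 0% at C12 1h, 0.567% at X-ray 4h and 0.0491% at X-ray 1h. A count of 0 is near these shares. SKP2, which marks p27 for degradation, stood at -0.028 (C12 4h), -0.019 (C12 1h), -0.18 (X-ray 4h) and -0.007 (X-ray 1h). Its cofactor CKS1B stood at -0.39 ± 0.132 at X-ray 4h (limma adjusted p 0.396), DTL, which directs p21 to degradation, at -0.50 ± 0.168 (0.392), and PCNA, which p21 binds, at 0.37 ± 0.185 (0.781). The list medians were 0.004, -0.009, -0.11 and 0.14.

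Of 25 transcriptional regulators of the inhibitors, 23 were measured and 0 passed in any group, near the shares of 0% to 0.567% over all genes. The medians were -0.007, 0.007, -0.036 and 0 in the 4 groups. MDM2, a ubiquitin ligase, stood at 0.17 ± 0.128 at C12 4h and 0.43 ± 0.128 at X-ray 4h (limma adjusted p 0.246). MYC, a repressor of CDKN1A and CDKN2B, stood at -0.17 ± 0.273 and -0.35 ± 0.273 there (limma adjusted p 1 and 0.927). Of 10 fibroblast and endothelial markers, which an epithelial line should lack, 0 passed in any group. A ratio does not tell an absent marker from an unchanged one, so this count is no check of the cell type.

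**Figure D4:**
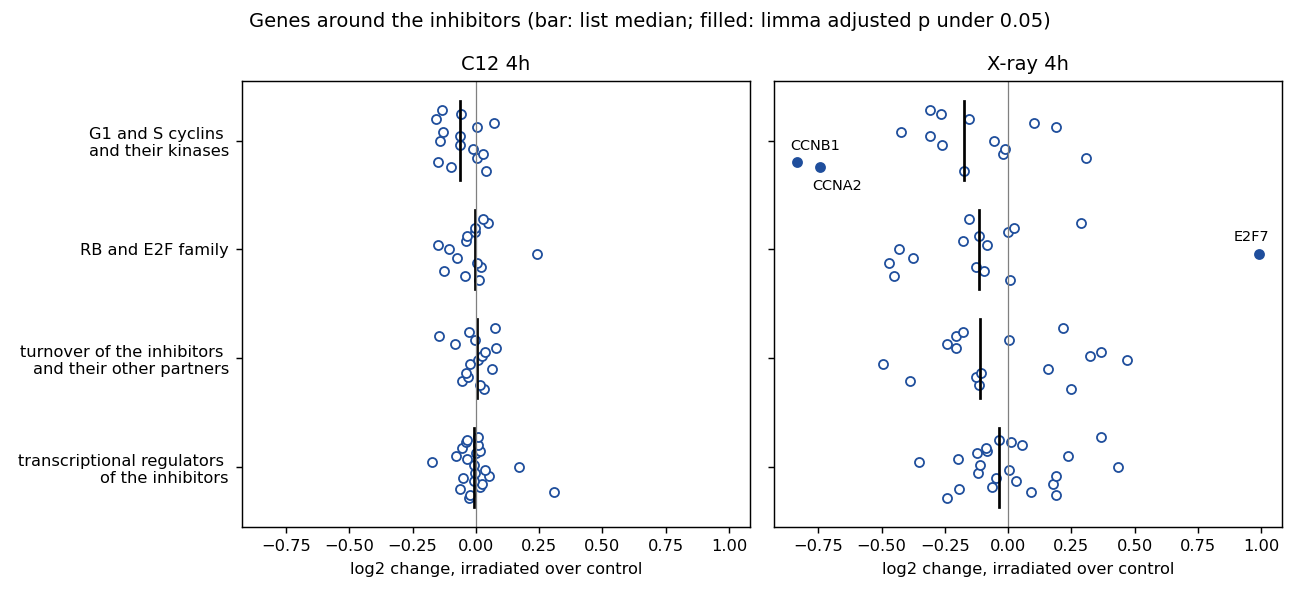
Estimates at C12 4h (left) and X-ray 4h (right) for the genes of 4 lists around the inhibitors, 1 point per gene, with the list median as a bar and genes past the threshold filled and named. At X-ray 4h, CCNB1 (-0.83), CCNA2 (-0.74) and E2F7 (0.99) passed, and at C12 4h none of these genes did.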

How the data were processed

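The deposited values are log2 ratios of the dyes of a 2-colour Agilent array, made by the authors with limma per the submitters' processing notes, which name no version. Background correction, normalization, log base and sign were not given in the sources used here, and base 2 is assumed, as limma writes it. The values ran from -3.384 to 2.932, with an SD of 0.4142 to 0.4143 on each of the 16 arrays and 0 missing values, a near-equal distribution on every array. The number of arrays limits the precision.

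Of 45220 features, 31332 had 1 gene symbol in the platform annotation (31291 updated through Entrez identifiers), 93 had several and 13795 were unnamed. Replicates 1 and 2 of each group were multiplied by -1, and features of a gene were averaged. limma 3.58.1 (R 4.3.3) fitted 4 group means and 1 dye coefficient (11 residual degrees of freedom), with Benjamini-Hochberg adjustment over 18334 genes, or over 45220 features for single features, and a threshold of 0.05. The model was tested on simulated data. Alternatives were the dye term, the arrays fitted, the feature summary, the scaling, array weights, a replicate block (statmod 1.5.0), other direction rules and leaving out each array.

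The text names every listed gene, each gene of 4 pathway lists past the threshold in 1 of the 4 groups, and the 5 genes with the highest and 3 with the lowest correlation with CDKN1A. Pathway genes given with values but not past the threshold (CDK1, CCND1, SKP2, CKS1B, DTL, PCNA, MDM2 and MYC) were chosen after their values were seen. The genes, lists and sign rule were chosen with earlier results of these data known. Promoter sequences are from RefSeq (GRCh38.p14). Same-numbered arrays come from cultures that the labels call independent, so the numbers only name arrays. Some items of the lists and motifs examined are not reported here.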

Additional observations from a re-analysis of the deposited data

Results flagged for a closer look

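CDKN1B at X-ray 1h had 1 array far from the others: replicate 3 read -0.726, against 0.115, 0.19 and 0.061 on the other 3 arrays. Its gap to the nearest of them was 0.861 of the group's range, above Dixon's critical value of 0.829 for 4 values. Of 20 groups of 4 values examined (5 genes in 4 groups), 1 stood out in this way, and chance marks about 1 in 20. On that array 9 of the 11 CDKN1B features read between -0.97 and -0.62, so the low value was not that of a single feature.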

How the results depend on the processing

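With the direction rule kept, CDKN1A passed in 13 of 13 alternatives at X-ray 4h (1.44 to 1.57), 12 of 13 at C12 4h (0.87 to 1.147) and 11 of 13 at X-ray 1h (0.78 to 1.055), leaving out arrays apart. Without a dye term C12 4h (1.12) and X-ray 1h (1.025) did not pass, nor did X-ray 1h on its own arrays (1.025). Leaving out 1 array gave 1.039 to 1.238 at C12 4h, 1.323 to 1.606 at X-ray 4h and 0.913 to 1.155 at X-ray 1h. The difference 4h minus 1h after C12 passed on its own 8 arrays (1.059) and with array weights (1.045). CDKN1A features that rose numbered 0 without a dye term at C12 4h and at X-ray 1h, and 10 at X-ray 1h with a dye coefficient per quality. Leaving out 1 array gave 0 to 6 at C12 4h and 0 to 7 at X-ray 1h. The cause of these changes was not tested.

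The direction rule decides the sign. As deposited, CDKN1A read -0.163 (C12 4h), -0.149 (X-ray 4h) and -0.024 (X-ray 1h), and turned by the labelled dye 0.045, -0.241 and -0.09. Turned by the other quality's dye code, a rule tried after the data were seen, it read 0.406, 0.255 and 0.052, and none passed. On each array this code equals the sign used in the main fit multiplied by the labelled dye. Under that sign, every value read with the other code is a contrast between the dyes and not a response to radiation. CCNA2 at X-ray 4h read 0.052 (labelled dye) and 0.088 (other code), and CCNB1 0.149 (other code). The other code also brought CDKN1B (0.435) and CDKN2D (0.753) at C12 4h past the threshold. CDKN2D passed too at C12 1h (0.721) and for C12 minus X-ray at 4h (0.865), and CDKN2B in all 4 groups (-0.457, -0.49, -0.389 and -0.62). In these fits 10077 genes passed at C12 4h, 10157 at C12 1h, 1124 at X-ray 4h and 2441 at X-ray 1h. For C12 minus X-ray at 4h, 5635 genes passed.

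For the other 4 genes, 1 of 544 values with the direction kept passed: CDKN1B at X-ray 4h without replicate 2 (-0.556, range 0.034 to -0.556 over the arrays left out). In 60 of the 544 the sign changed. A replicate block changed no call and left CDKN1A at 1.122, 1.45 and 1.025 (limma adjusted p 0.00873, 0.000107 and 0.00595). Same-numbered arrays deviated together with r over 0.1 in 14 of 24 pairs, and in 2 of 24 after the dye terms were removed, so no pairing was used.

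With the direction kept and all arrays of a group in the fit, 0 to 26 genes passed at C12 4h (2 in the main setting), 2 to 221 at X-ray 4h (104) and 0 to 16 at X-ray 1h (9). Leaving out 1 array gave 0 to 1, 15 to 1322 and 3 to 8. Signals over background were not used here, so dim features could not be told from bright ones.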

Other observations

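Many deposited values are identical between features of the same array. On each array between 52.03% and 67.88% of all values were shared exactly by 10 or more features. The share differed between the genes: it was 3.98% for CDKN1A, 18.75% for CDKN1B, 56.25% for CDKN1C, 87.5% for CDKN2B and 6.25% for CDKN2D. When such values were left out, an alternative added after the data were seen, 8327 genes could still be fitted, CDKN2B not among them, and CDKN1A stood at 1.125 (C12 4h), 0.061 (C12 1h), 1.57 (X-ray 4h) and 1.025 (X-ray 1h). The origin of the shared values was not tested.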
